A study of Mus musculus with 2688 samples.

Results

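Oxidative phosphorylation is carried out by 5 complexes of the inner mitochondrial membrane, most of whose subunits are encoded in the nucleus. In sorted mouse microglia, the resident macrophages of the brain and spinal cord, 93 such nuclear genes were followed across 14 groups of embryonic, 3-week-old and 16-week-old animals. The rule that picks the genes reads names and no measured value, and it was set with earlier results of these data known. They are the rows of the deposited table, which lists 48587 genes, whose symbol starts with Nduf, Uqcr, Cox4i, Cox5, Cox6, Cox7, Cox8 or Atp5, together with Cyc1, Sdha, Sdhb, Sdhc and Sdhd. Of 100 rows with such a name, 7 pseudogene rows holding 394 reads were left out. The 93 genes comprise 36 subunits of complex I, 7 complex I assembly factors (the Ndufaf genes), 4 subunits of complex II, 9 of complex III, 19 of complex IV and 15 of complex V. Another 3 genes, Cox7a2l, Atp5s and Atp5sl, carry the name of a complex without being counted here among its subunits. Ndufa4 and Ndufa4l2 were counted with complex IV, where NDUFA4 resides, despite their names.

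The cells came from CD1 mice named as wild type in the sample names, and no treatment is recorded. Embryonic microglia, for which no day of gestation is given, were taken from forebrain, midbrain, cerebellum and spinal cord (4 replicates each). After birth, cortex, hippocampus and corpus callosum were sampled along with cerebellum and spinal cord, at 3 weeks (3 replicates each) and at 16 weeks (4 replicates each), and several regions were obtained from the same animals. Single cells sorted with antibodies to CD11b, CD45, Ly6C, Ly6G and CD206 were processed with SmartSeq2, a full-length protocol without molecular identifiers, on 7 plates. Counts were summed over the cells of one replicate and region, here called a region sample, and these 51 sums are the unit of every test. A region and age always lie on 1 plate, and in the comparisons of ages within a region the ages lie on different plates, so that age and plate cannot be told apart there.

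Electrons from NADH enter at complex I and those from succinate at complex II, pass through ubiquinone to complex III and through cytochrome c to complex IV, and the proton gradient built on the way drives ATP synthesis by complex V. Complexes I, III, IV and V combine nuclear with mitochondrially encoded subunits, whereas complex II is encoded in the nucleus only. Microglia draw on both oxidative phosphorylation and glycolysis for energy, and their use of either is known to vary with activation state.

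Of 2660 sorted wells, 2402 were kept, and a region sample held 32 to 62 cells and 5509588 to 22735442 gene counts. The chosen genes made up 0.706% of the gene reads of kept wells. Kept wells had a median of 1146 reads from these genes, against a median of 1.5 and a highest value of 107 in 28 blank wells. The 14 microglia markers (among them Csf1r and P2ry12) had reads in all groups, with summed levels of 37370 to 54270.1 CPM (gene counts scaled to library size) in embryonic and 62715 to 92491 CPM in postnatal region samples. Border macrophage markers, led by Mrc1, which encodes the sorted antigen CD206, had a median summed level of 126 CPM in embryonic and 5.66 CPM in postnatal region samples. B cell markers, led by Ighm and with Igkc at 0 in all embryonic groups, stood at 1462 against 645 CPM. Astrocyte markers, led by Slc1a3, stood at 37.5 against 191 CPM. Among the leading astrocyte markers, only Slc1a3 was higher after birth, whereas Gja1 had 6.08 against 1.47 CPM and Aldh1l1 was slightly lower. The higher postnatal sum therefore does not show a rise of astrocyte markers as a set. Neutrophil and T and NK cell markers were below 1 CPM in the median of both embryonic and postnatal region samples. The median cell had 3583 to 4122 genes with a read in embryonic groups and 2307 to 2969 in postnatal groups. The part of these differences in the results below was not tested.

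The summed level of the 93 genes was higher in embryonic than in postnatal region samples. In forebrain it was 9423, 8693, 10245 and 8061 CPM in the 4 embryonic replicates, in midbrain 10619, 12269, 11344 and 8993 CPM, in cerebellum 10721, 13200, 11409 and 10659 CPM, and in spinal cord 10171, 10244, 9409 and 10194 CPM. At 3 weeks, it was 5335 ± 103 CPM in cortex, 5215 ± 411 in hippocampus, 5214 ± 60.0 in corpus callosum, 4217 ± 130 in cerebellum and 4735 ± 203 in spinal cord (mean ± SD, n = 3). At 16 weeks, it was 4927 ± 334 CPM in cortex, 5026 ± 355 in hippocampus, 4749 ± 446 in corpus callosum, 4663 ± 209 in cerebellum and 4663 ± 146 in spinal cord (n = 4). The lowest embryonic region sample (8061 CPM) lay above the highest postnatal one (5511 CPM). CPM is a share of all reads, so a lower value does not separate less RNA from these genes from more RNA of others. These levels were scaled over all 51 region samples, whereas each test below was scaled within its own 2 groups, so folds can differ somewhat from ratios of the printed levels.

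**Figure D1:**
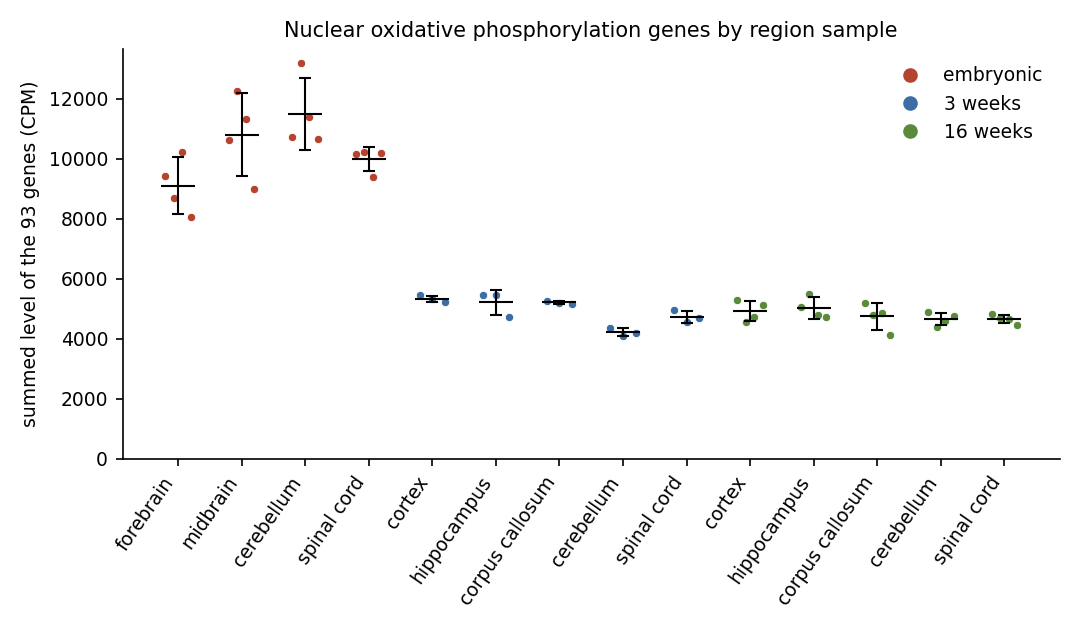
Summed level of the 93 nuclear oxidative phosphorylation genes (CPM, vertical axis from 0) for all 51 region samples, ordered by age and then region, with the group mean and SD as bars. The 16 embryonic region samples lie at 8061 CPM or above and the 35 postnatal ones at 5511 CPM or below.

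The promoters of a few members are shown because they carry short motifs known from nuclear genes of oxidative phosphorylation. Of the 93 genes, 76 were found in the RefSeq promoter table (GRCm38.p6). The 250 bases before each annotated start were searched on both strands for GCGCA, any base and GCGC (the motif of the factor NRF1), CCGGAAG (the ETS motif, bound by GABP) and AAGATGGCG (YY1), and matches could overlap. NRF1 motifs were found in 14 of the 76 genes (18.4%, against 4.23% of the 27025 genes in the table), ETS motifs in 13 (17.1% against 7.83%) and YY1 motifs in 2 (2.63% against 0.710%). Atp5h, Cox6a1 and Sdhd had both NRF1 and ETS motifs, and 51 genes had no match. Of 30 genes called lower at 3 weeks in both cerebellum and spinal cord, 24 were in the promoter table. In the 150 bases before the start, 2 of the 24 had an NRF1, 5 an ETS and 1 a YY1 motif. The shares of all genes above are for 250 bases, and those for 150 bases are not given here. These bases are printed for 4 of the 24 that hold a motif, Cox6a1, Uqcrh, Atp5c1 and Atp5j (for the last 2 genes, 1 of the 2 listed starts). For Atp5c1 and Atp5j, the start that is not printed had no motif in its 150 bases. Whether motifs go with the change after birth was not tested. The 4 printed genes are on the minus strand and are written 5′ to 3′ in the direction of the gene, with the motif in capitals.
Cox6a1: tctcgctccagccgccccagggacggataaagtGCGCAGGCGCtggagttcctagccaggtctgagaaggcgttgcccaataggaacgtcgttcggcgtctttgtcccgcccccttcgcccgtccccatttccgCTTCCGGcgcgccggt
Uqcrh: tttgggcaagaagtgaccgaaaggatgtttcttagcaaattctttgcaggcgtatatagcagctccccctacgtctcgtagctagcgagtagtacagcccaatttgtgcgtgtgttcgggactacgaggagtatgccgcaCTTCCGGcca
Atp5c1: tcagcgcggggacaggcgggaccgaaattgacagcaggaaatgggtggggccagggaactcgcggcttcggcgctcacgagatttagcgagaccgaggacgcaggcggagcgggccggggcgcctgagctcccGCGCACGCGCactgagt
Atp5j: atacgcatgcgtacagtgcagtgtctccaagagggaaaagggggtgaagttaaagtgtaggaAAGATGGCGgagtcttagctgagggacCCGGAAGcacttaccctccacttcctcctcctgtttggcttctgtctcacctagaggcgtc
The Cox6a1 window lies at chr5:115348959-115349108, with its NRF1 motif beginning 117 and its ETS motif 16 bases before the start. The Uqcrh window lies at chr4:116075071-116075220, with an ETS motif beginning 10 bases before the start. The Atp5c1 window lies at chr2:10080433-10080582, with an NRF1 motif beginning 17 bases before the start. The Atp5j window lies at chr16:84834977-84835126, with a YY1 motif beginning 88 and an ETS motif 61 bases before the start. A match describes these letters only and is not a measured binding site.

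Between the embryo and 3 weeks, members of all 5 complexes were lower. Counts were tested with edgeR's quasi-likelihood test with Benjamini-Hochberg adjustment over all genes tested, and a gene is called where the adjusted p is below 0.05. In cerebellum, 50 of the 88 genes that passed the filter on low counts were called lower and 0 higher, where 5.57% of all 13185 genes tested were called lower and 3.78% higher. The median log2 change was -1.43 for the members and 0.07 for all genes. In spinal cord, 33 of 86 were called lower and 0 higher (background 4.14% lower and 3.32% higher), with medians of -1.14 and 0.02. The 2 comparisons share no region sample, and 30 genes were called in both, which is 30 of the 50 and 30 of the 33. However, the embryonic region samples of both lay on the same plate and may come from the same animals. The 2 comparisons are therefore not independent, and the overlap is not a separate replication. How many of all genes tested were called lower in both is not given here, so the overlap has no background beside it. From embryonic forebrain to 3-week cortex, regions that carry different names and so differ in label as well as age, 8 of 87 were called lower and 0 higher (background 2.33% lower and 1.58% higher), with medians of -0.67 and -0.05.

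Against 16 weeks, where the same embryonic region samples were compared with other postnatal animals on another plate, 42 of 87 members were called lower in cerebellum (background 6.9% lower and 4.83% higher) and 21 of 87 in spinal cord (4.37% lower and 3.51% higher), with 0 called higher in either. The median log2 changes were -1.19 for members and 0.04 for all genes in cerebellum, and -1.01 and 0.03 in spinal cord. Counted without a test, the embryonic region samples all lay above the postnatal ones for 69 members in cerebellum at 3 weeks (background 16.1% of genes), 59 in spinal cord (13.9%) and 46 from forebrain to cortex (11.7%). At 16 weeks, this held for 58 members in cerebellum (14.7%) and 53 in spinal cord (13.3%). The counts moved when 1 region sample was left out, which also leaves fewer samples in the fit. In cerebellum, leaving out any 1 gave 31 to 41 at 3 weeks and 27 to 41 at 16 weeks. In spinal cord, it gave 17 to 27 and 10 to 21. The lowest cerebellum counts, 31 at 3 weeks and 27 at 16 weeks, came without embryonic cerebellum replicate 2. In spinal cord, the 3-week count was 21 without embryonic replicate 2 or 4, 19 without 3-week replicate 2 and 17 without 3-week replicate 3, and the 16-week count was 11 without embryonic replicate 1 or 2 and 10 without replicate 4. The count from forebrain to cortex was 1 to 4 when any 1 of its 7 region samples was left out. The share of all genes called in these smaller fits is not given here.

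**Figure D2:**
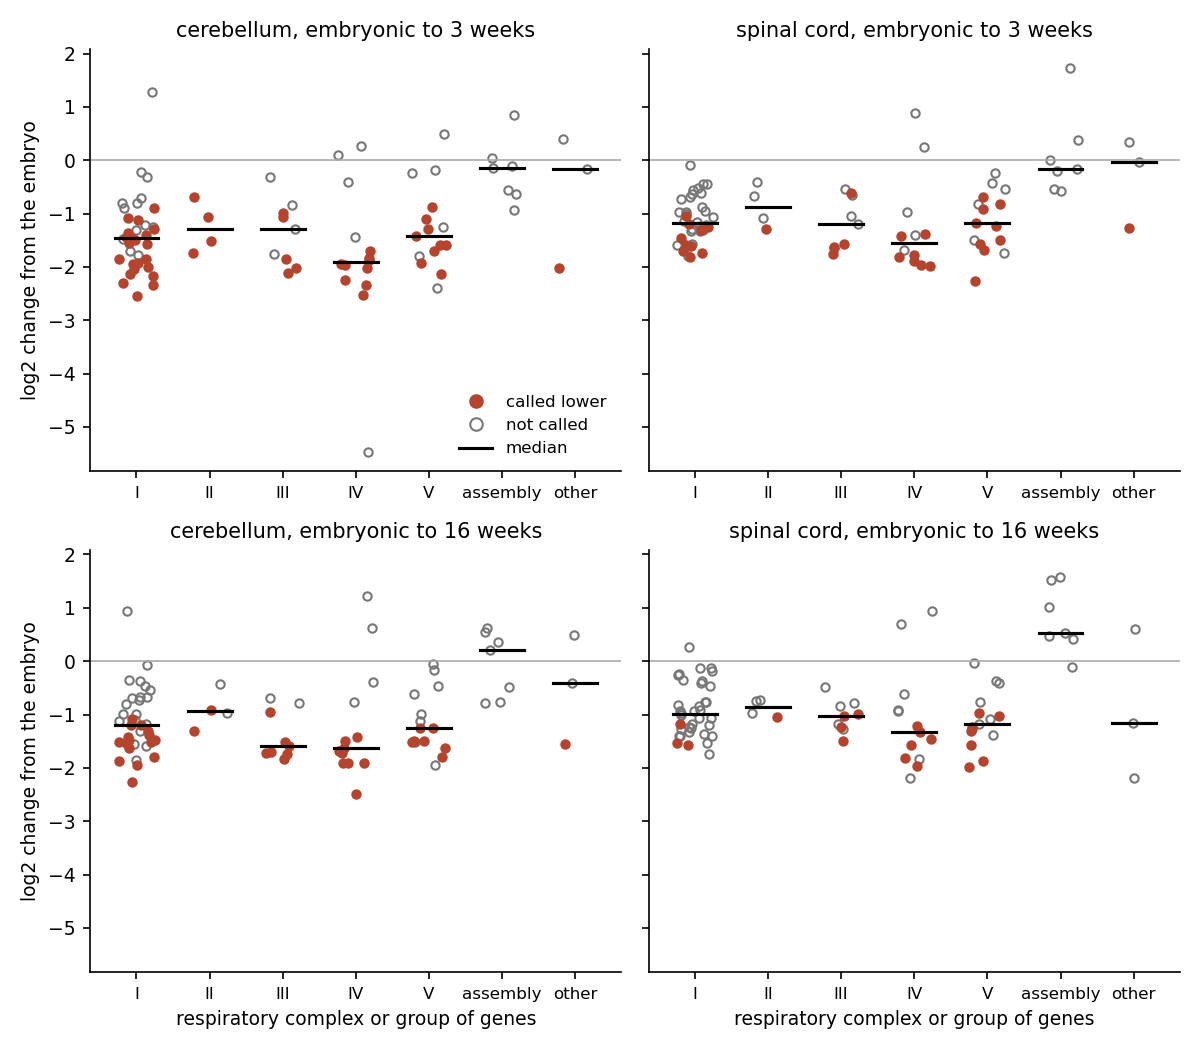
Log2 change (vertical axis) of every tested member from the embryo to 3 and 16 weeks in cerebellum and spinal cord (4 panels), by complex, assembly factors and other genes by name. Points are genes, filled where called lower, and the bar is the median. The medians of complexes I to V lie below 0 and those of the assembly factors between -0.16 and 0.53, and the lowest point, at -5.47 in cerebellum, is Cox4i2, which has few reads.

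Complex IV, cytochrome c oxidase, reduces oxygen to water. Its summed level was 1612 ± 282 CPM in embryonic cerebellum (SD, n = 4) and 335 ± 12.6 CPM at 3 weeks (n = 3). Of its members, 9 of 14 (cerebellum) and 7 of 12 (spinal cord) tested were called lower at 3 weeks, 3 of 13 from forebrain to cortex, and 9 and 6 of 13 at 16 weeks. The respective median log2 changes were -1.90, -1.55, -1.04, -1.63 and -1.33. The 5 to 7 untested members are low-level isoforms described below.

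Cox4i1 encodes the ubiquitous form of subunit 4, which is needed for assembly of the complex. Its level was 532, 772, 727 and 539 CPM in embryonic cerebellum and 104, 115 and 91.0 CPM at 3 weeks. The spinal cord values were 544, 460.1, 501 and 423 CPM in the embryo, 112, 118 and 126 CPM at 3 weeks and 190.3, 223, 171 and 185 CPM at 16 weeks. Within each region, no postnatal replicate reached an embryonic one. The log2 change to 3 weeks was -2.52 ± 0.20 (SE; 5.74-fold lower; edgeR adjusted p = 0.000165) in cerebellum and -1.97 ± 0.15 (3.93-fold lower; edgeR adjusted p = 0.000115) in spinal cord. From forebrain to cortex, the log2 change of Cox4i1 was -1.27 ± 0.20 (edgeR adjusted p = 0.00841), and at 16 weeks it was -1.91 ± 0.22 in cerebellum and -1.22 ± 0.16 in spinal cord (edgeR adjusted p = 0.000556 and 0.00111). These 5 calls of Cox4i1 were kept when any 1 region sample was left out and under the 11 other settings tried. The rows of Cox4i1 and the neighbouring gene Emc8 share 9.94% of the exon bases of Cox4i1.

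Among the small nuclear subunits around the catalytic core, Cox8a had 121, 167, 143 and 159 CPM in embryonic cerebellum and 22.8, 34.1 and 47.1 CPM at 3 weeks, a log2 change of -1.97 ± 0.31 (edgeR adjusted p = 0.00533). In spinal cord, Cox8a had 131, 134, 152 and 145 CPM against 33.8, 39.3 and 30.4 CPM, again -1.97 on the log2 scale (SE 0.23, edgeR adjusted p = 0.00109). Cox8a did not overlap between ages in either region. Cox6b1, which faces the intermembrane space where cytochrome c docks, had 169, 249.5, 224 and 189 CPM in embryonic cerebellum and 35.0, 35.0 and 51.1 CPM at 3 weeks. Its log2 change was -2.25 ± 0.26 in cerebellum and -1.81 ± 0.24 in spinal cord (edgeR adjusted p = 0.00105 and 0.002). Cox6a1, the non-muscle form of subunit 6a whose promoter is printed above, had 120.5, 136, 158 and 138 CPM in embryonic spinal cord and 40.4, 36.2 and 31.2 CPM at 3 weeks, a log2 change of -1.89 ± 0.24 (edgeR adjusted p = 0.00161).

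Cox5a fell from 73.7 ± 10.1 (SD, n = 4) to 13.4 ± 2.22 CPM (n = 3) in cerebellum (log2 -2.34 ± 0.34, edgeR adjusted p = 0.00358), and 38.7% of its exon bases overlap the row Gm26631. In spinal cord, the 3-week values of Cox5a were 36.5, 9.73 and 15.5 CPM, against 60.7 to 75.6 CPM in the embryo, and the log2 change of -1.68 ± 0.46 was not called (edgeR adjusted p = 0.0601). Cox6c had the largest called change from forebrain to cortex, from 77.9, 39.7, 53.3 and 42.9 CPM to 12.7, 13.5 and 8.05 CPM (log2 -2.14 ± 0.49, edgeR adjusted p = 0.0431). Ndufa4, which resides in complex IV and was first described in complex I, fell in cerebellum and spinal cord at 3 weeks (log2 -1.94 ± 0.29 and -1.39 ± 0.27, edgeR adjusted p = 0.00402 and 0.0143).

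**Figure D3:**
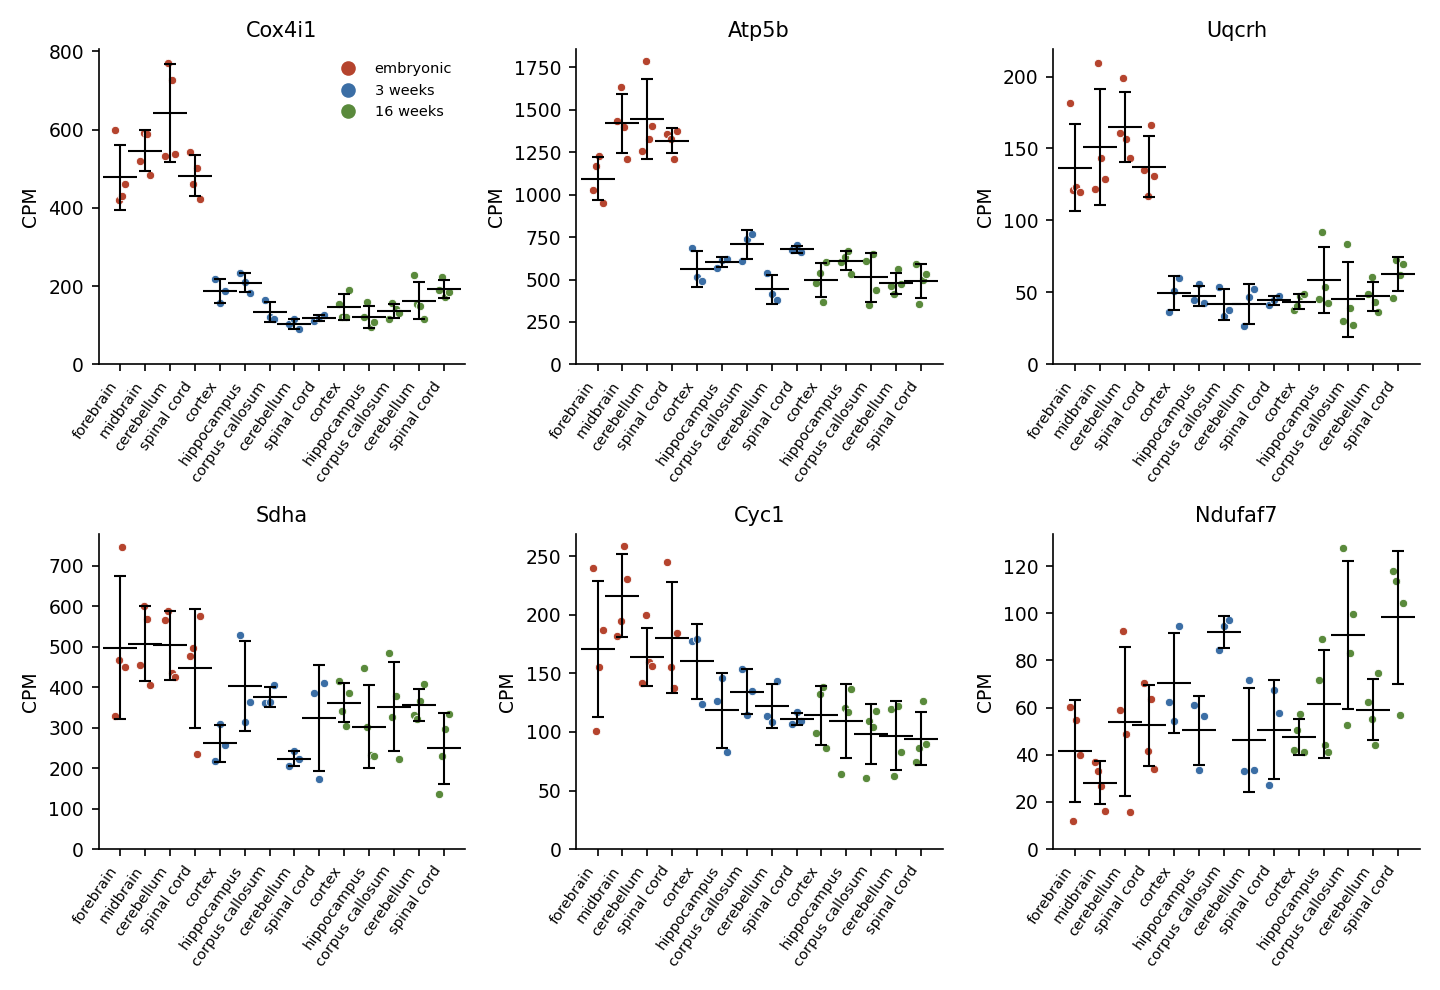
Level (CPM, vertical axis from 0) of Cox4i1, Atp5b, Uqcrh, Sdha, Cyc1 and Ndufaf7 for all 51 region samples, ordered by age and then region, with group means and SD. Cox4i1 and Atp5b lie higher in every embryonic than in every postnatal region sample, whereas the embryonic and postnatal values of Sdha, Cyc1 and Ndufaf7 overlap.

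Complex V, the ATP synthase, turns the proton gradient into ATP, and its summed level was 3863 ± 418 CPM in embryonic (SD, n = 4) and 1359 ± 149.8 CPM in 3-week cerebellum (n = 3). Atp5b, the catalytic beta subunit, made up 12.04% of the summed CPM of the 93 genes and was also the highest per kilobase of exon (187 CPM per kilobase as a mean over 51 region samples), followed by Cox4i1 (176) and Atp5a1 (173). Of 15 members of complex V, 9 were called lower at 3 weeks in each of cerebellum and spinal cord, 1 from forebrain to cortex and 7 in each region at 16 weeks. Atp5b had 1255, 1786, 1329 and 1405 CPM in embryonic cerebellum and 539, 413 and 377 CPM at 3 weeks (log2 -1.59 ± 0.17, edgeR adjusted p = 0.000754). In spinal cord, it had 1359, 1330.0, 1211 and 1376 CPM against 672, 703 and 663 CPM (log2 -0.90 ± 0.10, edgeR adjusted p = 0.000752). The 2 sets did not overlap in either region. From forebrain to cortex, Atp5b was the single called member of complex V (log2 -0.88 ± 0.16, edgeR adjusted p = 0.0169).

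Atp5a1, the alpha subunit that forms the hexameric head with beta, fell by 1.29 ± 0.22 on the log2 scale in cerebellum and by 1.18 ± 0.14 in spinal cord at 3 weeks (edgeR adjusted p = 0.00803 and 0.00114). The gamma subunit gene Atp5c1, which encodes the rotating shaft, was 2.67-fold and 1.77-fold lower (edgeR adjusted p = 0.003 and 0.0245). Atp5e, the epsilon subunit of the central stalk, had 89.3, 89.1, 139 and 111 CPM in embryonic spinal cord and 16.4, 27.95 and 20.5 CPM at 3 weeks, and its log2 change of -2.26 ± 0.33 was the largest among called members there (edgeR adjusted p = 0.00363). Atp5d, the delta subunit of the central stalk, had 191, 188, 204 and 180.3 CPM in embryonic spinal cord and 32.4, 37.5, 45.7 and 62.9 CPM at 16 weeks (log2 -1.99 ± 0.27, edgeR adjusted p = 0.00155). Atp5o, in the peripheral stalk, was called lower in both regions at both ages, but 44.0% of its exon bases overlap another gene.

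Complex I takes electrons from NADH. Of its 36 subunits, 22 (cerebellum) and 10 (spinal cord) were called lower at 3 weeks, in addition to 1 from forebrain to cortex, and 16 and 3 were called at 16 weeks. The 7 nuclear core subunits, which carry the flavin and iron-sulfur clusters or the quinone site, had median log2 changes at 3 weeks of -0.80 (cerebellum) and -0.88 (spinal cord), and the 29 accessory subunits -1.55 and -1.21. Of the core subunits, 2 were called in cerebellum and 3 in spinal cord, and of the accessory subunits 20 and 7. The median exon length was 2178 bases for core and 1217 bases for accessory subunits, and the part of length in this difference was not tested.

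Among accessory subunits, Ndufa1, a small membrane protein needed for assembly, had 55.5, 72.5, 77.4 and 38.6 CPM in embryonic cerebellum and 10.4, 10.9 and 12.1 CPM at 3 weeks (log2 -2.34 ± 0.41, edgeR adjusted p = 0.00806). In spinal cord, its log2 change was -1.82 ± 0.39 (edgeR adjusted p = 0.0232). Ndufc1 had the largest called change in cerebellum, from 17.9, 33.3, 24.2 and 17.8 CPM to 3.43, 3.95 and 3.70 CPM (log2 -2.54 ± 0.63, edgeR adjusted p = 0.0368), and Ndufa12 changed by -2.30 ± 0.58 (edgeR adjusted p = 0.0381). Neither call was kept when any 1 of the 7 region samples was left out. Ndufa11, a membrane-arm subunit, had 55.3, 93.8, 86.3 and 64.0 CPM in embryonic cerebellum and 14.4, 16.9, 16.2 and 11.4 CPM at 16 weeks (log2 -2.26 ± 0.35, edgeR adjusted p = 0.0027). Ndufb5 was the single called member of complex I from forebrain to cortex (log2 -1.79 ± 0.42, edgeR adjusted p = 0.0484). Ndufa10 was called in cerebellum at 3 weeks only among the 5 comparisons (log2 -0.89 ± 0.20, edgeR adjusted p = 0.0269), a difference between comparisons that was not tested.

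Among the core subunits, Ndufs1, the largest, had log2 changes of -0.31 ± 0.28 in cerebellum and -0.44 ± 0.22 in spinal cord (edgeR adjusted p = 0.561 and 0.28), and its cerebellar values overlapped between 109 to 206 CPM in the embryo and 98.5 to 130.4 CPM at 3 weeks. Ndufs3, whose promoter holds an ETS match, had 54.4, 48.4, 40.4 and 63.0 CPM in embryonic cerebellum and 41.7, 39.0 and 42.9 CPM at 3 weeks (log2 -0.21 ± 0.32, edgeR adjusted p = 0.749). Ndufs3, singled out after its values were seen, overlapped between ages in both regions at 3 weeks. Ndufab1, the mitochondrial acyl carrier protein, had the highest estimate among complex I members in cerebellum, at 17.3, 16.9, 20.1 and 19.1 CPM in the embryo and 31.1, 31.8 and 61.2 CPM at 3 weeks (log2 1.29 ± 0.43, edgeR adjusted p = 0.102).

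The 7 Ndufaf assembly factors, which help build complex I and do not remain in it, were called in 0 of the 5 comparisons by edgeR. At an unadjusted p below 0.05, 1 passed in spinal cord at 3 weeks, 1 in spinal cord at 16 weeks and 0 in the other comparisons. For that threshold, the share of all genes is not given here. The assembly factors had median log2 changes of -0.15 and -0.16 at 3 weeks in cerebellum and spinal cord, 0.59 from forebrain to cortex, and 0.21 and 0.53 at 16 weeks. Their summed level was 143, 205, 159 and 105 CPM in embryonic cerebellum and 90.5, 156 and 111 CPM at 3 weeks, so that the ages overlapped. Ndufaf7, a methyltransferase that acts on complex I during its assembly, had 70.3, 41.8, 63.5 and 34.1 CPM in embryonic spinal cord and 118, 114, 56.8 and 104 CPM at 16 weeks (log2 1.02 ± 0.36), which was not called by edgeR (adjusted p = 0.127) and was called higher by DESeq2 (adjusted p = 0.0382). Levels of these factors were low, and whether their change differed from that of the subunits was not tested.

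Complex III passes electrons from ubiquinol to cytochrome c. Of its 9 members, 5 were called lower at 3 weeks in each of cerebellum and spinal cord, 1 from forebrain to cortex, and 7 and 4 at 16 weeks. Uqcrh, the hinge subunit whose promoter is printed above, had 161, 199, 156 and 143 CPM in embryonic cerebellum and 26.5, 46.8 and 52.7 CPM at 3 weeks (log2 -1.86 ± 0.31, edgeR adjusted p = 0.00627). In spinal cord, the log2 change of Uqcrh was -1.58 ± 0.23 at 3 weeks and -1.03 ± 0.26 at 16 weeks (edgeR adjusted p = 0.00365 and 0.0403), and from forebrain to cortex it was -1.38 ± 0.31 (edgeR adjusted p = 0.0428). The last 2 calls were lost when any 1 region sample was left out. Uqcrc1, a core protein, had 553, 474, 355 and 388 CPM in embryonic cerebellum and 118, 129, 118 and 139 CPM at 16 weeks (log2 -1.74 ± 0.19, edgeR adjusted p = 0.000375). Cyc1, the cytochrome c1 heme protein, had 142, 199, 160.1 and 156 CPM in embryonic cerebellum and 114, 109 and 144 CPM at 3 weeks, ranges that overlap. It was not called at 3 weeks in cerebellum or spinal cord (log2 -0.31 ± 0.22 and -0.64 ± 0.22, edgeR adjusted p = 0.436 and 0.123). Uqcrc2, the other core protein, was likewise not called at 3 weeks (edgeR adjusted p = 0.322 and 0.0857 in the same order of regions), and 19.7% of its exon bases overlap Pdzd9.

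Complex II, succinate dehydrogenase, also serves the tricarboxylic acid cycle. Of its 4 subunits, 4 (cerebellum) and 1 (spinal cord) were called lower at 3 weeks, 1 from forebrain to cortex, and 2 and 1 at 16 weeks. Sdhc, which anchors the complex in the membrane, had 126, 158, 146 and 133 CPM in embryonic cerebellum and 45.4, 27.7 and 43.7 CPM at 3 weeks. Its log2 change was -1.74 ± 0.27 in cerebellum and -1.29 ± 0.24 in spinal cord at 3 weeks (edgeR adjusted p = 0.00483 and 0.0112), and -1.31 ± 0.27 and -1.05 ± 0.27 at 16 weeks (edgeR adjusted p = 0.0108 and 0.0424). Sdhd, the other anchor, fell from 159, 162, 177 and 162 CPM to 50.1, 62.8 and 48.1 CPM in cerebellum (log2 -1.51 ± 0.22, edgeR adjusted p = 0.00387), and from forebrain to cortex its log2 change was -1.73 ± 0.33 (edgeR adjusted p = 0.0201). In spinal cord at 3 weeks, Sdhd and Sdhb had log2 changes of -1.08 ± 0.30 and -0.66 ± 0.18 and were not called (edgeR adjusted p = 0.0589 and 0.0619), although the ages did not overlap. Sdha, the flavoprotein, was called in cerebellum at 3 weeks (log2 -1.06 ± 0.18, edgeR adjusted p = 0.00787), and in spinal cord its 3-week values of 386, 173 and 410.3 CPM overlapped embryonic values of 477, 498, 234 and 576 CPM. Sdhb, the iron-sulfur subunit, changed by -0.69 ± 0.17 in cerebellum at 3 weeks (edgeR adjusted p = 0.0334), a call lost when any 1 region sample was left out, and by -0.91 ± 0.21 at 16 weeks (edgeR adjusted p = 0.0202).

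Several members have tissue-specific isoforms or near-identical copies. Cox6a2, Cox7a1 and Cox8b, the heart and skeletal muscle forms, had 959, 138 and 32 reads over all kept cells, in 36, 12 and 1 of 51 region samples. Cox4i2, a form known from lung, had 460 reads in 17 region samples, Cox6b2, known from testis, 1045 reads in 44, and Cox7b2, Cox8c and Ndufa4l2 60, 11 and 14 reads in 10, 4 and 1. Of the 3 genes that encode the identical c subunit of the ATP synthase, Atp5g3 had a mean of 75.6 CPM, Atp5g1 4.22 and Atp5g2 3.58 CPM. Of the 7 pseudogene rows left out, 3 carry the name of Atp5l, 2 that of Uqcrh, 1 that of Atp5k and 1 that of Ndufab1. How reads with several matches were treated is not given in the sources used here, so the levels of these 4 genes, Uqcrh and Ndufab1 included, are uncertain, as are those of other members with near-identical copies, such as Atp5g1 and Atp5g2. Cox7a2l, a factor of respiratory supercomplexes, had a mean of 118 CPM in embryonic and 40.4 CPM in postnatal region samples and was called lower in cerebellum and spinal cord at 3 weeks (log2 -2.02 ± 0.29 and -1.27 ± 0.31, edgeR adjusted p = 0.00355 and 0.0374).

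Between 3 and 16 weeks, 0 members were called in any of the 5 regions by edgeR, and DESeq2 called 0 as well. The background of genes called in either direction was 0.0596% in cortex, 0.0919% in hippocampus, 0.0% in corpus callosum and cerebellum, and 0.05% in spinal cord. At an unadjusted p below 0.05, 3, 2, 1, 3 and 4 members passed, and the median log2 changes were -0.08, -0.07, 0.02, 0.24 and 0.19. The backgrounds above are for adjusted p, and the share of all genes at the unadjusted threshold is not given here. The smallest edgeR adjusted p in these regions were 0.513, 0.491, 0.983, 0.636 and 0.606. Cox4i1 in spinal cord had the smallest unadjusted p, with a log2 change of 0.77 ± 0.22 (edgeR adjusted p = 0.606) from values of 112 to 126 CPM at 3 weeks to 171 to 223 CPM at 16 weeks that do not overlap. It is named after its values were seen.

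Between the 2 groups of 1 plate, edgeR called 0 members in all 7 pairs, against a background in either direction of 0.00798% for 3-week cerebellum and corpus callosum and 0.0% in the other 6. At an unadjusted p below 0.05, 8 members passed between embryonic midbrain and forebrain, 7 between embryonic spinal cord and cerebellum, 2 between 3-week hippocampus and cortex, 4 between 3-week cerebellum and corpus callosum, and 2, 2 and 1 in the other pairs. The backgrounds above are for adjusted p. For the unadjusted threshold, the share of all genes is not given here, so these counts have no background beside them. One of these pairs joins 2 ages, 3-week spinal cord and 16-week cortex on the same plate. DESeq2 called 1 member in each of 2 pairs. Ndufab1 was higher in embryonic spinal cord (48.7, 55.5, 34.9 and 31.1 CPM) than in embryonic cerebellum (17.3, 16.9, 20.1 and 19.1 CPM), with a log2 difference of 1.25 (DESeq2 adjusted p = 0.0293) and no overlap, where edgeR gave an adjusted p of 0.515. Sdha was lower in 3-week cerebellum (206, 242 and 223 CPM) than in corpus callosum (360.5, 363 and 405 CPM), with a log2 difference of -0.66 (DESeq2 adjusted p = 0.044) and an edgeR adjusted p of 0.592.

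The change from embryo to 3 weeks was also compared between the regions directly. Cerebellum and spinal cord samples of an age may come from the same animals, and the fit treated them as separate. For the difference of the log2 changes, spinal cord minus cerebellum, 0 of 88 members were called (background in either direction 0.0948%), 4 passed an unadjusted p of 0.05, and the median difference was 0.31. Atp5b had the smallest edgeR adjusted p, at 0.279, with a difference of 0.68 ± 0.20. The larger number of calls in cerebellum than in spinal cord was therefore not matched by a called difference of any member. For the change from 3 to 16 weeks, 0 of 87 members were called (background 0.00673%), 1 passed an unadjusted p of 0.05, and the median difference was 0.02. In both fits, the share of all genes that passed the unadjusted threshold is not given here.

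In single cells, reads were thinned to 44117 per cell, which left 2161 cells. The median embryonic cell had a read from 48.8 ± 2.8 of the 93 genes in forebrain, 47.6 ± 1.6 in midbrain, 51 ± 3.6 in cerebellum and 50.4 ± 4.6 in spinal cord (mean and SD of 4 replicate medians). At 3 weeks, the mean of the replicate medians was 22.8 in cerebellum to 28.3 in cortex, and at 16 weeks it was 21.8 in cerebellum to 26.6 in cortex. The members' share of reads in the median cell was 0.831 to 0.983% in embryonic groups, 0.417 to 0.511% at 3 weeks and 0.463 to 0.486% at 16 weeks. Cox4i1 had a read in 98.9% of thinned embryonic cerebellar cells and in 68.5% at 3 weeks, and Ndufaf7 in 19.5% and 19.6%. Cells are not replicates, and these values carry no test.

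**Figure D4:**
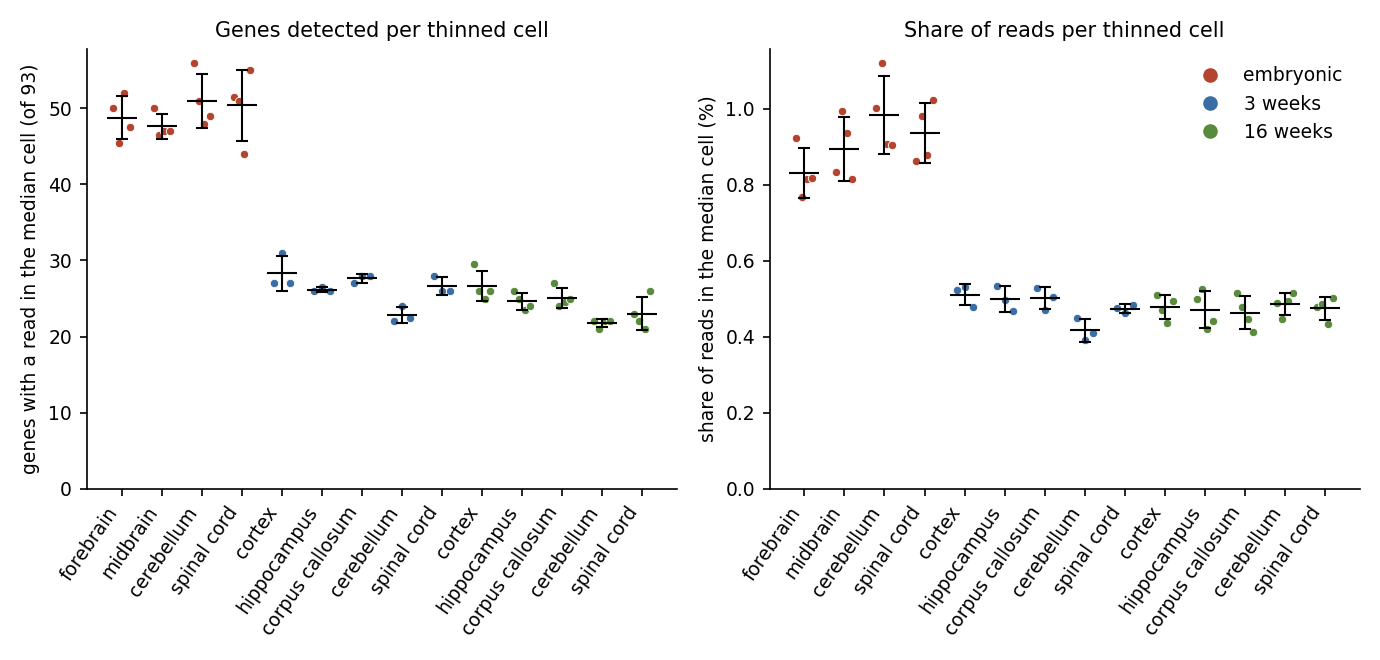
Number of the 93 genes with a read (left) and their share of reads in percent (right) in the median cell of each region sample after thinning to 44117 reads, by region and age, with group means and SD. The embryonic medians are 44 to 56 genes and the postnatal ones 21 to 31.

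Cycling cells were more common in the embryo. Their mean share of these reads was higher than that of other cells in the 4 embryonic groups, a difference that was not tested. Cells with reads from at least 5 of 20 genes of the G2/M phase were counted as cycling, and 146 of the 2161 cells met this. In embryonic cerebellum, the share of reads was 1.15 ± 0.232% in the median cycling cell and 0.960 ± 0.0763% in the median other cell (SD over 4 replicates), and in spinal cord 1.01 ± 0.195% and 0.915 ± 0.0563%. In forebrain and midbrain, cycling cells had 1.02 ± 0.0963 and 0.999 ± 0.110%, and a replicate of the embryonic groups held 4 to 16 cycling cells. The non-cycling embryonic cells of forebrain and midbrain had 0.789 and 0.855%, above the 0.417 to 0.511% of postnatal groups. Without cycling cells and cells too shallow to score, the members called lower at 3 weeks numbered 40 in cerebellum, 18 in spinal cord and 2 from forebrain to cortex, and the median log2 changes were -1.43, -1.08 and -0.61. At 16 weeks, the counts were 37 in cerebellum and 12 in spinal cord. The share of all genes called in these fits is not given here.

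The 13 mitochondrially encoded subunits are transcribed inside the organelle, and 7 of them passed the filter in these libraries. The other 6 (mt-Co2, mt-Co3, mt-Atp6, mt-Atp8, mt-Nd3 and mt-Nd4l) were listed with 3 reads or fewer in all kept cells together. The summed mitochondrially encoded level used below therefore rests almost wholly on the 7 that passed and not on all 13. Of the 7, 6 (cerebellum) and 5 (spinal cord) were called lower at 3 weeks, 6 from forebrain to cortex, and 7 and 5 at 16 weeks. Their median log2 change ranged from -1.67 from forebrain to cortex to -0.79 in spinal cord at 3 weeks. mt-Cytb, cytochrome b of complex III, fell by 1.61 ± 0.15 in cerebellum and by 1.11 ± 0.16 in spinal cord on the log2 scale (edgeR adjusted p = 0.000332 and 0.00389). The ratio of the summed nuclear to the summed mitochondrially encoded level was 0.415 to 0.488 in the means of embryonic groups, 0.439 to 0.516 in 3-week corpus callosum, cerebellum and spinal cord, and 0.437 to 0.570 at 16 weeks. In 3-week cortex it was 0.835, 0.826 and 1.02, and in 3-week hippocampus 0.877, 0.949 and 0.928, so that these 2 groups, which share a plate with no other group, lay above all other region samples.

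Other lists of mitochondrial and metabolic genes were taken from the same fits. Of 11 electron and nucleotide carriers, 6 and 4 were called lower at 3 weeks in cerebellum and spinal cord, among them Ucp2, an inner-membrane carrier (log2 -1.59 and -1.28, edgeR adjusted p = 0.000219 and 0.00111). Glycolytic genes were called lower in 6 of 16 and 5 of 15 cases, including Aldoa, which cleaves fructose bisphosphate (log2 -1.81 and -1.62, edgeR adjusted p = 0.000361 and 0.000869). Tricarboxylic acid cycle genes were called in 4 and 3 of 16 cases, including Cs, citrate synthase (log2 -1.36 and -1.55, edgeR adjusted p = 0.00502 and 0.00411), and mitochondrial antioxidant enzymes in 4 and 3 of 8. Cytosolic ribosomal protein genes were called lower in 35 and 31 of 81 cases, with median log2 changes of -1.46 and -1.23. None of these genes was called higher in cerebellum or spinal cord at 3 weeks.

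In contrast, mitochondrial ribosomal protein genes were seldom called, with 4 of 77 lower in the cerebellar and 3 of 77 in the spinal comparison (medians -0.73 and -0.48), near the backgrounds of 5.57% and 4.14%. Import genes were called in 2 of 23 cases in each region, and assembly factors outside the name rule in 3 and 1 of 36, among them Coa5, a factor of complex IV (log2 -1.57 and -1.40, edgeR adjusted p = 0.00328 and 0.0125). The 11 regulators of mitochondrial biogenesis tested had median log2 changes of -0.07 in cerebellum and -0.77 in spinal cord, and Nrf1, whose motif is described above, changed by 0.26 in cerebellum and -0.33 in spinal cord (edgeR adjusted p = 0.666 and 0.629). Whether one list differed from another was not tested. Many members are short, and non-members with under 1000 exon bases were called lower in 6.33% of cases in cerebellum, against 52.0% of members of that length. In spinal cord, the values were 5.71% and 41.7%. These short genes were not matched for read count, and the part of length in the calls was not tested.

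**Figure D5:**
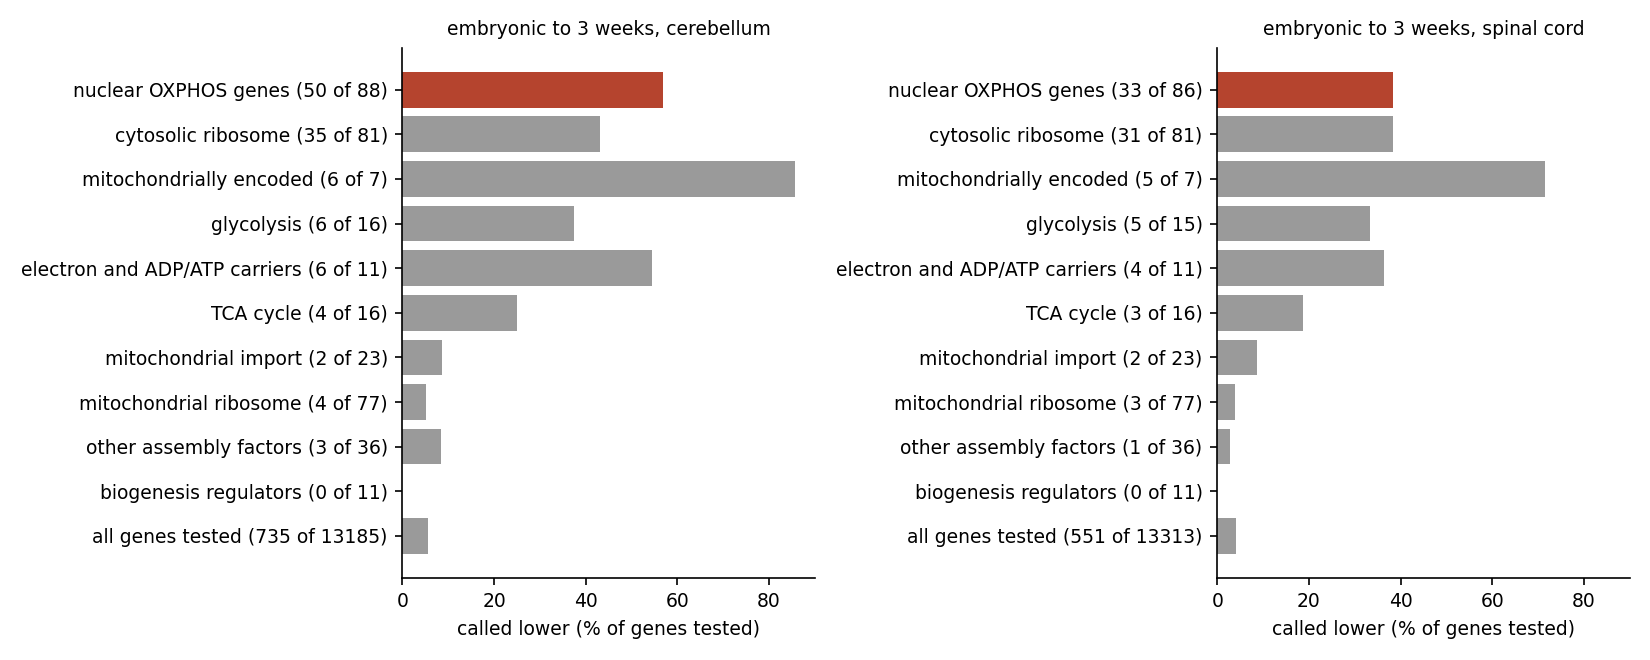
Percent of the genes tested in each list that were called lower (horizontal axis) between the embryo and 3 weeks in cerebellum (left) and spinal cord (right), with counts beside each name. The nuclear oxidative phosphorylation genes (50 of 88 and 33 of 86) and the cytosolic ribosomal proteins (35 and 31 of 81) both lie above all genes tested, and the mitochondrial ribosomal proteins (4 and 3 of 77) near all genes tested.

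Because the levels are shares, the comparisons were also scaled to the ERCC spike-in rows of the table, which assumes that each well received the same amount of these control RNAs. This moved the median of all genes to -0.54 in cerebellum, -0.74 in spinal cord and -0.66 from forebrain to cortex at 3 weeks, and to -0.98 and -1.16 at 16 weeks. The medians of the members were then -2.02, -1.90, -1.30, -2.19 and -2.21, and 60, 62, 18, 67 and 66 members were called lower with 0 higher. The share of all genes called lower under this scaling is not given here. The backgrounds printed above belong to the fits without it, so these counts cannot be set against them.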

How the data were processed

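SmartSeq2 libraries of single sorted microglia were measured in 2688 wells, 28 of them blank, of 7 plates. The values are whole-number counts per gene that the authors deposited in 1 table of 48587 gene rows and 92 spike-in rows. STAR 2.5.2b, featureCounts 1.6.2 and the build GRCm38 are named per the submitters' processing notes, and the handling of strand and of reads with several matches is not given in the sources used here. From each of the 224 wells of plate columns 1 and 2, the counts of same-plate wells whose names start the same were subtracted, after which 0 values were negative. Wells with at least 500 genes and at most 20% mitochondrial counts were kept (2402 of 2660 sorted wells, 90.3%), and no doublet caller was run because single cells were sorted. Depth was 5509588 to 22735442 counts per region sample, and no 2 region samples had identical profiles.

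CPM values were computed here with TMM scaling. Tests used edgeR 4.0.16 (quasi-likelihood, low-count filter by group, two-sided) in R 4.3.3 on each pair of groups, with Benjamini-Hochberg adjustment over all genes, and were tested on simulated data. DESeq2 1.42.0, other scalings and filters, a replicate block and leaving out each region sample were alternatives. P-values measure the spread between region samples, and the labels do not tie replicate numbers to animals across regions. Genes named are the 3 most abundant subunits of complexes I, III, IV and V, the 4 subunits of complex II, the 6 largest called changes without overlap per embryonic comparison, isoforms, any call against the main direction and the leading genes of the other lists, except that some genes this rule names are not reported here. The members and lists were chosen with earlier results of these data known.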

Additional observations from a re-analysis of the deposited data

Results flagged for a closer look

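In groups of 4 replicates, 11 sets of values held a replicate far from the other 3 by Dixon's test, and 10.8 are expected by chance for the number of sets tested. For the summed level of all 93 genes, embryonic spinal cord replicate 3 had 9409 CPM and the others 10171 to 10244 CPM. The summed level of complex II in embryonic forebrain replicate 3 was 1253 CPM, against 885 to 926 CPM. The summed level of complex III was 543 CPM in 16-week cerebellum replicate 3, against 463 to 472 CPM, and 671 CPM in 16-week spinal cord replicate 2, against 451 to 473 CPM.

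Among single genes, Ndufa10 had 264 CPM in 16-week corpus callosum replicate 2, against 56.7 to 65.2 CPM in the others. Uqcrc2 had 303 CPM in embryonic cerebellum replicate 2, against 113 to 129 CPM. Ndufs1 had 169 CPM in 16-week cortex replicate 1, against 87.2 to 97.5 CPM, and Uqcrc1 had 313 CPM in 16-week cortex replicate 4, against 173 to 193 CPM. Sdhb had 200.4 CPM in embryonic forebrain replicate 1, against 235 to 242 CPM, and 177 CPM in 16-week cerebellum replicate 4, against 108 to 115 CPM. Sdhd had 240.5 CPM in embryonic forebrain replicate 1, against 129 to 141 CPM.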

How the results depend on the processing

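The counts of members called lower kept their direction, and their size moved with the setting. The values follow the order cerebellum, spinal cord and forebrain to cortex at 3 weeks, then cerebellum and spinal cord at 16 weeks, where 50, 33, 8, 42 and 21 were called. With a replicate block, they were 28, 10, 1, 29 and 10. The deviations of same-numbered region samples had correlations of -0.02 to 0.04 over all comparisons, below the 0.1 set for pairing, so the numbers were not taken as pairs. As a hint from the data and not the design, samples of some comparisons correlated best with their own number. Every sample did so between 3-week hippocampus and cortex (3 of 3). At 16 weeks, all did so between corpus callosum and hippocampus and between spinal cord and cerebellum (4 of 4 each). The same was seen from embryo to 3 weeks in cerebellum and from 3 to 16 weeks in corpus callosum (3 of 3 each). Animals differ between ages, so a shared number cannot mark 1 animal there. From embryo to 3 weeks in spinal cord, 0 of 3 did so. Spike-in scaling gave 60, 62, 18, 67 and 66, and DESeq2 called 60, 53, 21, 48 and 35, of which 1 was higher in cerebellum at 3 weeks (Ndufab1) and 1 in spinal cord at 16 weeks (Ndufaf7). Without cycling cells, the counts were 40, 18, 2, 37 and 12, without plate columns 1 and 2 they were 47, 32, 2, 30 and 21, and on counts as deposited 52, 41, 13, 49 and 21. With all 14 groups in 1 fit, they were 49, 26, 11, 44 and 35. Leaving out 1 region sample gave 31 to 41, 17 to 27, 1 to 4, 27 to 41 and 10 to 21, where fewer samples enter the fit. For the other settings, the cause was not tested. The share of all genes called in these alternative fits is not given here, so the counts have no background beside them. In the main fit from forebrain to cortex, 2.33% of all genes tested were called lower. DESeq2 called 1 member each between embryonic spinal cord and cerebellum and between 3-week cerebellum and corpus callosum. The other comparisons, including both differences of age changes, stayed at 0 under every setting run, and leaving out replicates for those differences was chosen after seeing the data. A replicate block was not run for those differences. Of the named members' values under alternatives, 1484 kept their side of the threshold, 247 lost it and 0 reversed. Low counts limit the isoforms that did not pass the filter, for which no test was made.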

Other observations

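Some genes of mitochondria and of glycolysis outside the name rule were also lower after birth. Slc25a4, which exchanges ADP for ATP across the inner membrane, changed by -2.16 on the log2 scale between embryonic and 3-week cerebellum. Prdx3, a mitochondrial peroxiredoxin, changed by -1.88 in cerebellum and -1.57 in spinal cord, and Ldha, which reduces pyruvate to lactate, by -1.90 and -1.18. These 5 changes were called by edgeR. Among G2/M genes, 18 of 20 in cerebellum and 15 of 20 in spinal cord were called lower at 3 weeks.

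Between 3 and 16 weeks in hippocampus, 2 of the 7 mitochondrially encoded subunits tested were called higher, mt-Cytb by 1.07 ± 0.12 and mt-Nd1 by 1.32 ± 0.15 on the log2 scale (edgeR adjusted p = 0.0227 and 0.0307), while 0 nuclear members were called by edgeR or DESeq2 and 2 passed an unadjusted p of 0.05. For the unadjusted threshold, the share of all genes is not given here. The 3-week hippocampus belongs to the plate with the high ratio of nuclear to mitochondrially encoded levels, and plate and age cannot be told apart here.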
